A study of Arabidopsis thaliana with 8 samples.

Results

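The genes described here are 41 loci of the cysteine-rich receptor-like kinase (CRK) family of Arabidopsis thaliana, CRK1 to CRK34 and CRK36 to CRK42, out of 27444 nuclear protein-coding genes. Single loci were chosen by family membership, and the family was selected on its coverage by accessible sites in these same libraries, so the members' values in the 2 populations are given as a description without a test. ATAC-seq reads out open chromatin as the places where an added transposase can insert, and the authors called transposase hypersensitive sites (THSs) in each library. All libraries came from inflorescence apices of ap1 cal double mutants carrying the DRNL::erGFP reporter, grown on soil in long days. In this mutant, meristems multiply in the place of flowers. Apices of many plants were pooled for a sort, their cells were freed of the wall as protoplasts, and a cell sorter separated 3 samples of GFP+ cells, the lateral organ founder cells, from 3 samples of GFP- cells, their neighbours. The sort follows the DRNL promoter alone, so GFP- cells are all other cell types of the apex. The series calls the replicates biological. Another 2 libraries, of sheared DNA, were not analysed here.

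CRKs are receptor-like kinases of the cell membrane. Outside the cell they carry DUF26 domains with conserved cysteines, and inside the cell they carry a serine/threonine kinase. Many CRK genes are known to respond to pathogens, to salicylic acid and to reactive oxygen, and the family has grown by tandem duplication. Some members act beside the receptors of pattern-triggered immunity or act on the oxidase that makes extracellular reactive oxygen.

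The GFP+ lists held 24156, 26216 and 25623 THSs over 17.4, 19.6 and 17.3 Mb, and the GFP- lists 26001, 26310 and 28757 THSs over 17.8, 18.3 and 19.4 Mb. GFP+ replicate 2 therefore covered more of the genome than the other GFP+ libraries. Without read counts in these lists the depth is unknown, and no counting error can be given. At DRNL, the gene whose promoter drives the reporter, coverage of the gene and its flanks was 60.5% ± 5.72 in GFP+ and 34.7% ± 5.07 in GFP- (SD, n = 3), with every GFP+ library above every GFP- library and an adjusted p of 0.0815 by limma. The meristem gene STM (28.0% and 21.9%, adjusted p = 0.537 by limma) and the mutated genes AP1 (41.3% and 23.4%, adjusted p = 0.173 by limma) and CAL (69.8% and 39.2%, adjusted p = 0.095 by limma) also had every GFP+ library above every GFP- library. The phloem marker APL had no THS in any library, and SUC2, the other phloem marker, overlapped between the groups. The epidermal markers ATML1 and PDF1 had a mean of 27.4% in each group, and the mesophyll markers RBCS1A and LHCB1.1 had 50.7% in GFP+ and 50.1% in GFP-.

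The measure used for each gene is the percent of the gene plus 1000 bp on both sides that lies inside THSs. THSs are made of 100 bp windows, so a change by 1 window is the smallest step. In such bulk samples, a THS open in fewer cells and a THS less open in each cell cannot be told apart.

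CRK genes carried little accessible chromatin in both populations. Coverage averaged over the 41 genes was 8.27%, 9.66% and 7.43% in the GFP+ libraries and 10.9%, 10.1% and 11.5% in the GFP- libraries. The groups did not overlap, and their means were 8.45% ± 1.13 and 10.8% ± 0.684 (SD, n = 3), a difference of -2.37 percentage points. Over all protein-coding genes the means were 18.3% ± 1.32 and 18.8% ± 0.886, a difference of -0.447 points, and the groups overlapped. The median CRK gene had 2.30% in GFP+ and 7.26% in GFP-, against 13.3% and 13.9% for all genes.

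**Figure D1:**
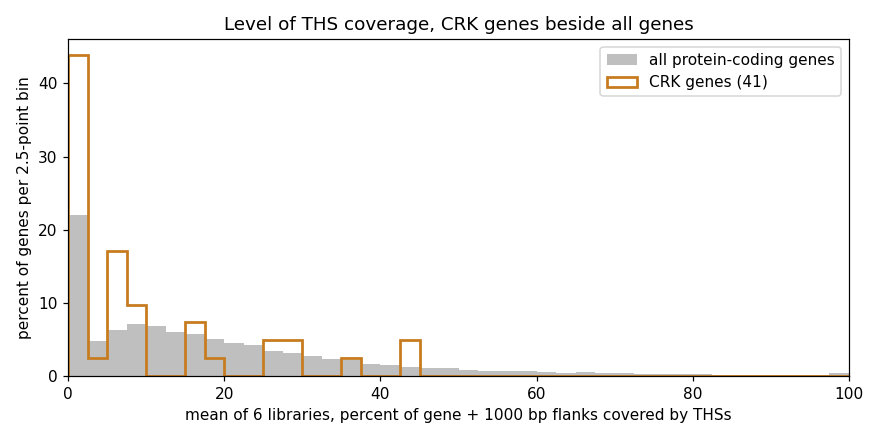
Distribution of mean coverage over the 6 libraries (x axis, percent of gene plus 1000 bp flanks inside THSs, in bins of 2.5 points) for the 41 CRK genes (outline) and for all protein-coding genes (grey); the y axis is the percent of genes in each bin. The lowest bin holds the 16 CRK genes without any THS and the 2 lowest covered ones, and CRK9 and CRK3 stand at the right end of the CRK outline.

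Of the 41 genes, 16 (39.0%) had no THS in any library, against 18.0% of all genes. A THS in all 6 libraries was found at 19 CRK genes (46.3%, against 71.5% of all genes), and at 6 CRK genes (14.6%, against 10.5%) a THS was found in 1 to 5 libraries. The genes without a THS were CRK13, CRK14, CRK15, CRK16, CRK20, CRK21, CRK22, CRK23, CRK25, CRK31, CRK32, CRK33, CRK36, CRK37, CRK38 and CRK39. CRK13 is known for cell death and resistance when overexpressed, and CRK36 for a role in immunity and, with its partner ARCK1, in abscisic acid and osmotic stress responses. The number of CRK genes with a THS was 21, 23 and 20 in GFP+ and 24, 23 and 24 in GFP-.

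The order of mean coverage over the 6 libraries ran from CRK3 through CRK9, CRK10, CRK11, CRK41, CRK2, CRK18, CRK42, CRK34, CRK19, CRK12, CRK6, CRK7, CRK30, CRK27, CRK1, CRK26, CRK28, CRK5, CRK40, CRK24, CRK4, CRK17 and CRK29 to CRK8. CRK3 (AT1G70530) had 42.4%, 46.0% and 42.3% in GFP+ and 46.2%, 44.3% and 48.0% in GFP-. Its mean of 44.9% was at or above that of 90.6% of all genes. CRK9 (AT4G23170) had 39.1%, 44.4% and 41.7% in GFP+ and 41.7%, 39.1% and 49.6% in GFP-. At CRK3 and CRK9 the groups overlapped, and these neighbours in the order lay within each other's spread. CRK9, whose RefSeq symbol is EP1, is a short gene of 1824 bp, so its flanks weigh more in its value than those of other members. At the low end, CRK29 (AT4G21410) had 7.87% in GFP+ replicate 1, 4.25% in GFP- replicate 1 and 0 in the other libraries.

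**Figure D2:**
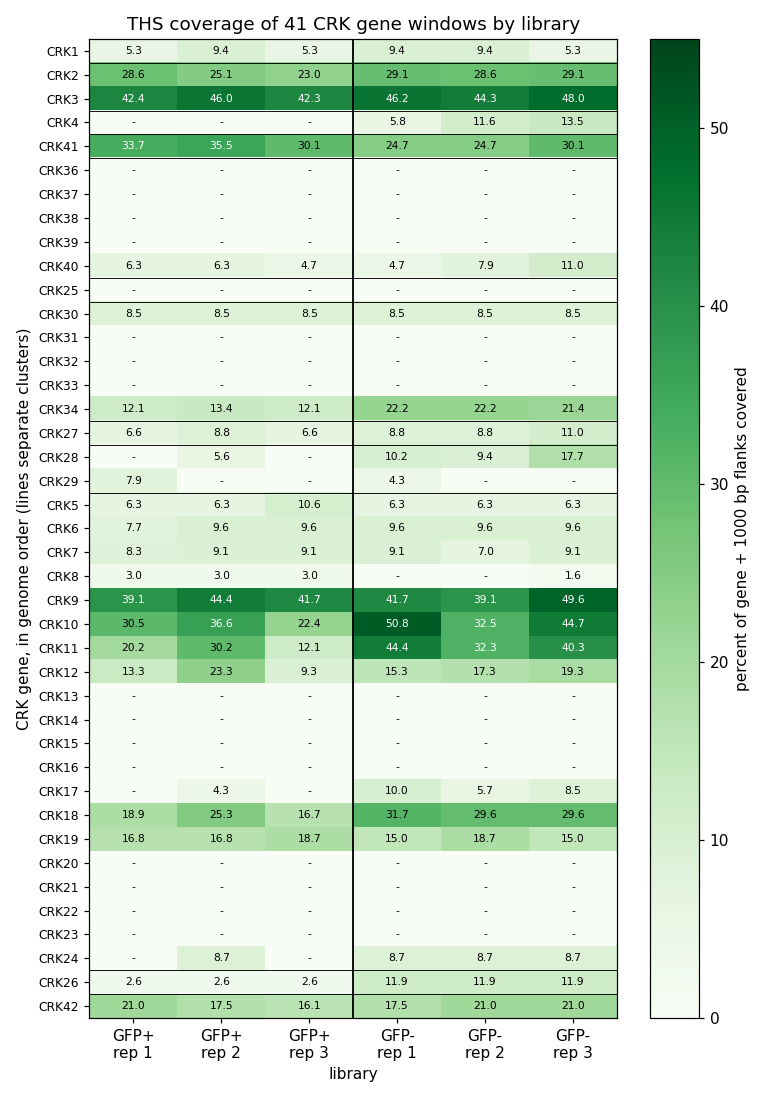
Percent of each CRK gene plus 1000 bp flanks inside THSs (colour and printed value; a dash is 0) in the 6 libraries (columns), with genes in genome order (rows) and lines between clusters. The rows of CRK13 to CRK16 and of CRK20 to CRK23 are empty in all libraries, and CRK3 and CRK9 are dark in all of them.

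Most of the CRK accessibility lay outside the gene bodies. Mean body coverage was 3.52% in GFP+ and 4.33% in GFP-, against 12.5% and 12.9% over all genes. Mean coverage of the flanks was 16.0% ± 2.33 and 20.9% ± 0.852 (SD, n = 3), against 26.1% and 26.6% over all genes. The CRK genes with coverage in at least 2 libraries, which are 25 of the 41, entered the fit over 21886 genes. Of these, 23 (92.0%) had more coverage in the flanks than in the body, against 81.7% of all genes in the fit, and 9 (36.0%) had none in the body, against 13.7%. The RefSeq table gives no strand, so upstream and downstream flanks were not separated.

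Between the populations, more CRK genes were lower in the founder cells than higher. Among the 25 genes in the fit the GFP+ mean was lower at 18 (72.0%, against 44.6% of all genes in the fit). It was higher at 6 (24.0%, against 41.8%) and equal at CRK30. The median difference was -2.10 points, with a range from -18.1 to 6.60, while the median over all genes in the fit was 0. All GFP+ libraries lay below all GFP- libraries at 7 of the 25, namely CRK4, CRK11, CRK17, CRK18, CRK26, CRK28 and CRK34, beside 6.63% of all genes in the fit. CRK4 had no THS in any GFP+ library and entered the fit through GFP- alone, so the filter fixed its lower mean. All GFP+ libraries lay above all GFP- libraries at CRK8 alone, beside 3.61% of all genes. In the fit over all genes (limma, Benjamini-Hochberg adjustment, threshold 0.05), 2 of the 25 (CRK26 and CRK34) were below the threshold as lower, beside 1.14% of all genes, and 0 as higher, beside 0.347%, with 1.48% of all genes in either direction. At an unadjusted p under 0.05 there were 9 of the 25, and 10.8% of all genes. The family was selected on these same values, so these counts are no test of its members and nothing is read from them.

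**Figure D3:**
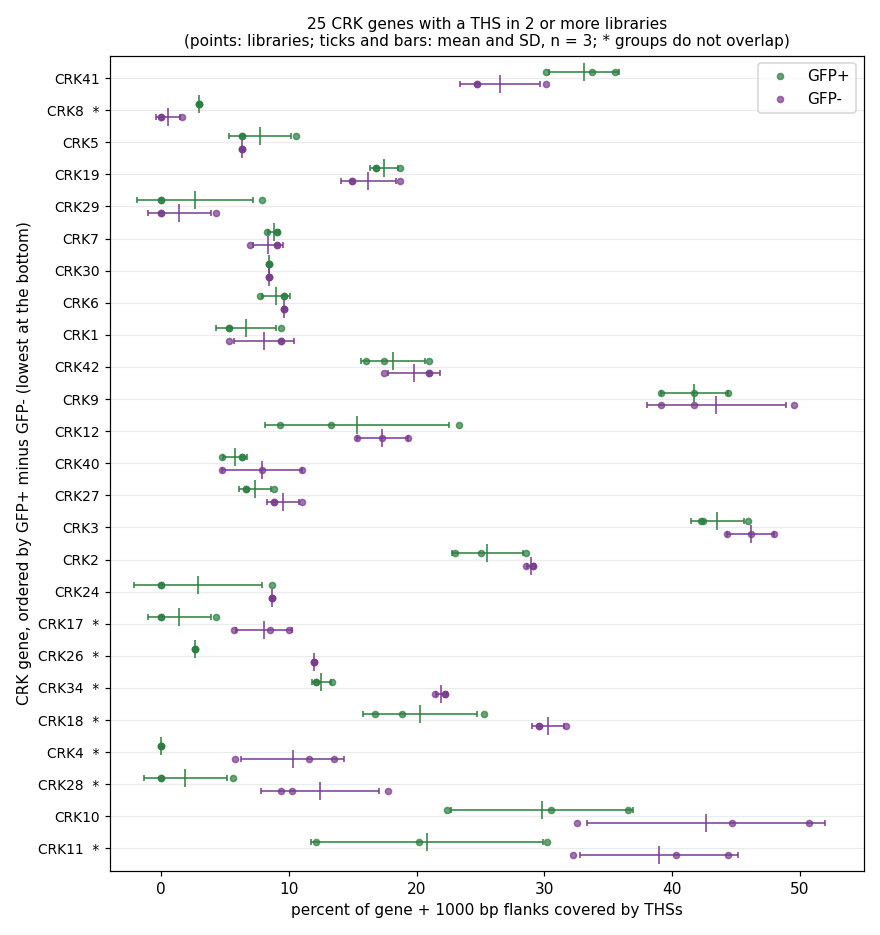
Coverage (x axis, percent of gene plus 1000 bp flanks inside THSs) of the 25 CRK genes with a THS in 2 or more libraries (y axis, ordered by GFP+ minus GFP-); points are libraries, ticks and bars the mean and SD (n = 3), and stars mark genes whose groups do not overlap. Green GFP+ points lie left of purple GFP- points in the lower rows, from CRK11 to CRK17 except at CRK10, and to the right at CRK8.

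GFP+ replicate 2 was the GFP+ library closest to GFP- at several of these genes. Without it, all remaining GFP+ libraries lay below all GFP- libraries at 12 members in place of 7, and 4 members were below the limma threshold as lower in place of 2. Leaving out any library cannot lower the first of these counts, which was 10 without GFP- replicate 2. That count was not taken over all genes in these settings, so nothing is read from its rise. Over all genes, lower calls by limma went from 249 to 329 without GFP+ replicate 2. The part that its larger covered length has in this was not tested.

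The genes stand in few places of the genome. On chromosome 4 there were 36 of the 41, and 34 fell into 5 tandem clusters when members less than 50000 bp apart were joined. The windows of 29 members overlapped that of another member, so neighbours share THSs and are not independent. Members in clusters had a mean of 8.20% in GFP+ and 10.5% in GFP-, and the 7 single members had 9.70% and 12.3%.

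The longest cluster, CRK5 to CRK24, held 20 members in 76.214 kb of chromosome 4. THSs covered 6.69%, 8.79% and 6.69% of this span in GFP+ and 9.71%, 8.40% and 9.45% in GFP-. The groups overlapped, with means of 7.39% ± 1.21 and 9.18% ± 0.694 (SD, n = 3). The mean over the 6 libraries was 8.29%, against 21.8% in the 50000 bp to its left and 8.57% in the 50000 bp to its right. Bodies of the genes were covered to 3.48% and 4.53%, and the bases between them to 22.3% and 26.9%, in GFP+ and GFP-.

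THSs were unevenly spread along this array. CRK13 to CRK16 formed a run of 4 genes over 14.521 kb with no THS in the 6 libraries, and CRK20 to CRK23 a second run of 4 genes over 14.229 kb. Between and before them lay CRK9 to CRK12 and CRK17 to CRK19, with sites in libraries of both populations.

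**Figure D4:**
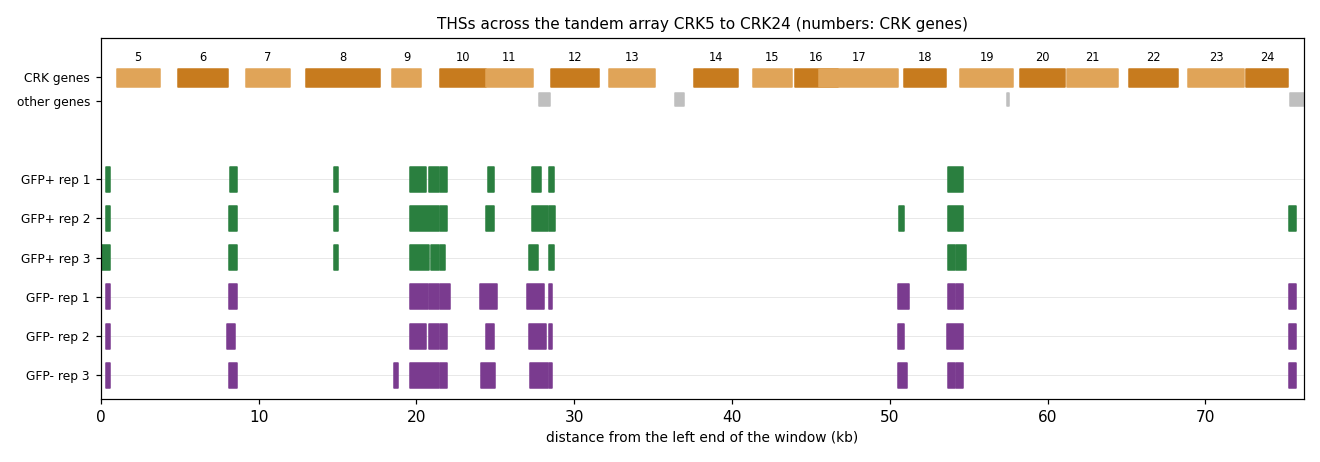
Map of the array CRK5 to CRK24 (x axis, distance in kb from the left end of the window); upper rows show CRK genes (numbered) and other genes, and the lower rows THSs of each library. Sites stand together from CRK9 to CRK12 and beside CRK18, the stretches of CRK13 to CRK16 and CRK20 to CRK23 hold none, and the site left of CRK18 and the site at the right end are missing from GFP+ replicates 1 and 3.

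CRK11 (AT4G23190) had the largest difference among the members. Its coverage was 20.2%, 30.2% and 12.1% in GFP+ and 44.4%, 32.3% and 40.3% in GFP-, with means of 20.8% ± 9.09 and 39.0% ± 6.16 (SD, n = 3), a difference of -18.1 points. The groups did not overlap, but the highest GFP+ library, replicate 2, came near the lowest GFP- library, replicate 2. Sites at both ends of CRK11 took part. At its border with CRK10 (TAIR10 chromosome 4, 12140501 to 12141600) the sites spanned 400, 500 and 0 bp in GFP+ and 1100, 500 and 900 bp in GFP-. By the authors' score they ranked at the 6.65 and 20.6 percentiles in GFP+ replicates 1 and 2 and at 38.0, 17.5 and 53.9 in GFP-. At the border of CRK11 with CRK12 (12143501 to 12144800) the sites spanned 600, 1000 and 600 bp in GFP+ and 1100 bp in each GFP- library.

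CRK10 (AT4G23180) overlaps CRK11 and shares the first of these regions. Its coverage was 30.5%, 36.6% and 22.4% in GFP+ and 50.8%, 32.5% and 44.7% in GFP-. The group means were 29.8% ± 7.11 and 42.7% ± 9.28 (SD, n = 3), and GFP- replicate 2 lay inside the GFP+ range. The region between CRK9 and CRK10 (12136101 to 12137900) spanned 1600, 1800 and 1700 bp in GFP+ and 1700, 1600 and 1800 bp in GFP-. Inside CRK10, on its CRK9 side, a further region (12138001 to 12138600) spanned 400, 400 and 300 bp in GFP+ and 600, 400 and 400 bp in GFP-.

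CRK12 (AT4G23200) had 13.3%, 23.3% and 9.31% in GFP+ and 15.3%, 17.3% and 19.3% in GFP-, so the groups overlapped. Next to the region it shares with CRK11 stood a further site (12144901 to 12145300), of 300, 400 and 300 bp in GFP+ and 200 bp in each GFP- library. When bases inside other genes were left out of the windows, CRK12 turned from -2.00 to 3.04 points, with all GFP+ libraries above all GFP- libraries.

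CRK17 and CRK18 share a region that was mostly absent from GFP+ (12167001 to 12167700). Its sites spanned 0, 300 and 0 bp in GFP+ and 700, 400 and 600 bp in GFP-. CRK17 (AT4G23250) had 0%, 4.27% and 0% in GFP+ and 9.97%, 5.70% and 8.54% in GFP-, and this region alone makes up its value. CRK18 (AT4G23260) had 18.9%, 25.3% and 16.7% in GFP+ and 31.7%, 29.6% and 29.6% in GFP-, with means of 20.3% ± 4.46 and 30.3% ± 1.24 (SD, n = 3). The RefSeq symbol of CRK17, EMB1290, is one given to genes studied for embryo defects. On the other side of CRK18, the region it shares with CRK19 (12170101 to 12171300) spanned 900, 900 and 1000 bp in GFP+ and 800, 1000 and 800 bp in GFP-. CRK19 (AT4G23270) had 16.8%, 16.8% and 18.7% in GFP+ and 15.0%, 18.7% and 15.0% in GFP-, with overlapping groups. The 2 sides of CRK18 thus differed in whether the groups overlapped.

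CRK8 (AT4G23160) was the member higher in GFP+ in every library, from a small site. It had 2.97% in each GFP+ library and 0%, 0% and 1.62% in GFP-, a difference of 2.43 points. A site of 200 bp inside its body (12131301 to 12131500) was listed in the 3 GFP+ libraries and in no GFP- library. By the authors' score this site ranked at the 4.43, 11.3 and 9.73 percentiles of the 3 GFP+ lists, near their lower end. In the flanks alone the difference at CRK8 was -1.82 points.

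The first genes of the array varied little. CRK5 (AT4G23130), known for defence and cell death when overexpressed, had 6.34% in 5 of the 6 libraries and 10.6% in GFP+ replicate 3. CRK6 (AT4G23140) and CRK7 (AT4G23150), linked to responses to extracellular oxidative stress, had 7.70% to 9.62% and 6.98% to 9.05%. CRK24 (AT4G23320), at the other end, had 0%, 8.67% and 0% in GFP+ and 8.67% in each GFP- library, from a site that overlaps the neighbouring gene AT4G23330 (12191801 to 12192200). With bases inside other genes left out, CRK24 had 1.73% in each of the libraries with the site, and its difference went from -5.78 to -1.15 points. At CRK24 and in the region of CRK17 and CRK18, GFP+ replicate 2 was the GFP+ library that held a site.

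In the cluster CRK30 to CRK34, THSs covered 5.82% ± 0.890 of the span in GFP+ and 7.95% ± 0.736 in GFP- (SD, n = 3). In the 50000 bp to its left they covered 5.77% ± 0.702 and 6.91% ± 0.306, and in those to its right 8.40% ± 0.600 and 9.27% ± 1.22. The groups did not overlap in the span or to its left, and overlapped to its right. CRK30 (AT4G11460), at the left end of the cluster, had 8.45% in all 6 libraries. CRK31, CRK32 and CRK33 had no THS. CRK34 (AT4G11530), at the right end, had 12.1%, 13.4% and 12.1% in GFP+ and 22.2%, 22.2% and 21.4% in GFP-, with means of 12.5% ± 0.734 and 21.9% ± 0.431 (SD, n = 3). The groups stood well apart compared with their spread. The region behind this (TAIR10 chromosome 4, 6985101 to 6987000) spanned 900, 1400 and 1200 bp in GFP+ and 1600, 1600 and 1700 bp in GFP-, and it overlaps the neighbouring gene AT4G11521. With bases inside other genes left out, CRK34 had 5.04% in every library, so its difference lay in bases of the neighbouring gene.

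CRK28 (AT4G21400), known to associate with the immune receptor FLS2 and its co-receptor BAK1, overlaps CRK29 in position. It had 0%, 5.63% and 0% in GFP+ and 10.2%, 9.39% and 17.7% in GFP-, with means of 1.88% ± 3.25 and 12.4% ± 4.59 (SD, n = 3). Its groups did not overlap. The nearer region (TAIR10 chromosome 4, 11398101 to 11398900) spanned 0, 300 and 0 bp in GFP+ and 400, 500 and 800 bp in GFP-. By the authors' score it ranked at the 9.32 percentile in GFP+ replicate 2 and at the 28.9, 26.3 and 47.0 percentiles in GFP-. A second region (11397601 to 11398000), which overlaps the end of the lectin receptor kinase gene B120, was listed in GFP- replicates 1 and 3 alone. It ranked there at the 16.1 and 13.1 percentiles. At CRK29, a region on its far side (11405801 to 11406700) was listed in replicate 1 of each population. The span of both genes was covered to 2.92% ± 2.66 in GFP+ and 8.84% ± 2.68 in GFP-.

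CRK36 to CRK40, 5 genes spread over 63.249 kb of chromosome 4, formed the emptiest cluster. THSs covered 0.580% ± 0.0913 of it in GFP+ and 0.791% ± 0.316 in GFP- (SD, n = 3), and the mean over the 6 libraries was 0.685%, against 1.63% in the 50000 bp to its left and 14.2% in those to its right. The only member with a THS was CRK40 (AT4G04570), with 6.30%, 6.30% and 4.72% in GFP+ and 4.72%, 7.87% and 11.0% in GFP-.

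CRK2 and CRK3, side by side on chromosome 1, were the most accessible cluster. Their span was covered to 26.6% ± 1.28 in GFP+ and 29.6% ± 1.1 in GFP-. CRK2 (AT1G70520), which phosphorylates the NADPH oxidase RBOHD and is known for a role in salt tolerance, had 28.6%, 25.1% and 23.0% in GFP+ and 29.1%, 28.6% and 29.1% in GFP-. The highest GFP+ library equalled the lowest GFP- library.

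Of the single members, CRK4 and CRK26 were lower in GFP+, and CRK41 had the largest difference in the other direction. CRK4 (AT3G45860), an enhancer of pattern-triggered immunity, had 0% in each GFP+ library and 5.80%, 11.6% and 13.5% in GFP-. Its region (TAIR10 chromosome 3, 16862101 to 16862800) spanned 300, 600 and 700 bp in the GFP- libraries and overlaps the long noncoding RNA gene AT3G07295. By the authors' score this region ranked at the 15.8, 35.7 and 45.4 percentiles of the GFP- lists. Without bases of other genes CRK4 had 0% in each GFP+ library and 0.345%, 6.20% and 8.35% in GFP-, a difference of -4.97 points. All GFP+ libraries remained below all GFP- libraries, but only by 0.345 points in GFP- replicate 1.

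CRK26 (AT4G38830) had 2.64% in each GFP+ library and 11.9% in each GFP- library, with no spread inside either group. A region at the far end of the neighbouring gene AT4G38840 (TAIR10 chromosome 4, 18125501 to 18126100) was listed with 600 bp in each GFP- library and in no GFP+ library. It overlaps the ends of AT4G38840 and of SAUR15, a gene of the auxin-induced SAUR family. With bases inside other genes left out, CRK26 had 3.40% in each GFP+ library and 13.8% in each GFP- library, a difference of -10.4 points. By the authors' score it ranked at the 40.9, 61.3 and 59.4 percentiles of the GFP- lists. On the other side of CRK26, a region (18118901 to 18121300) was present in all 6 libraries.

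**Figure D5:**
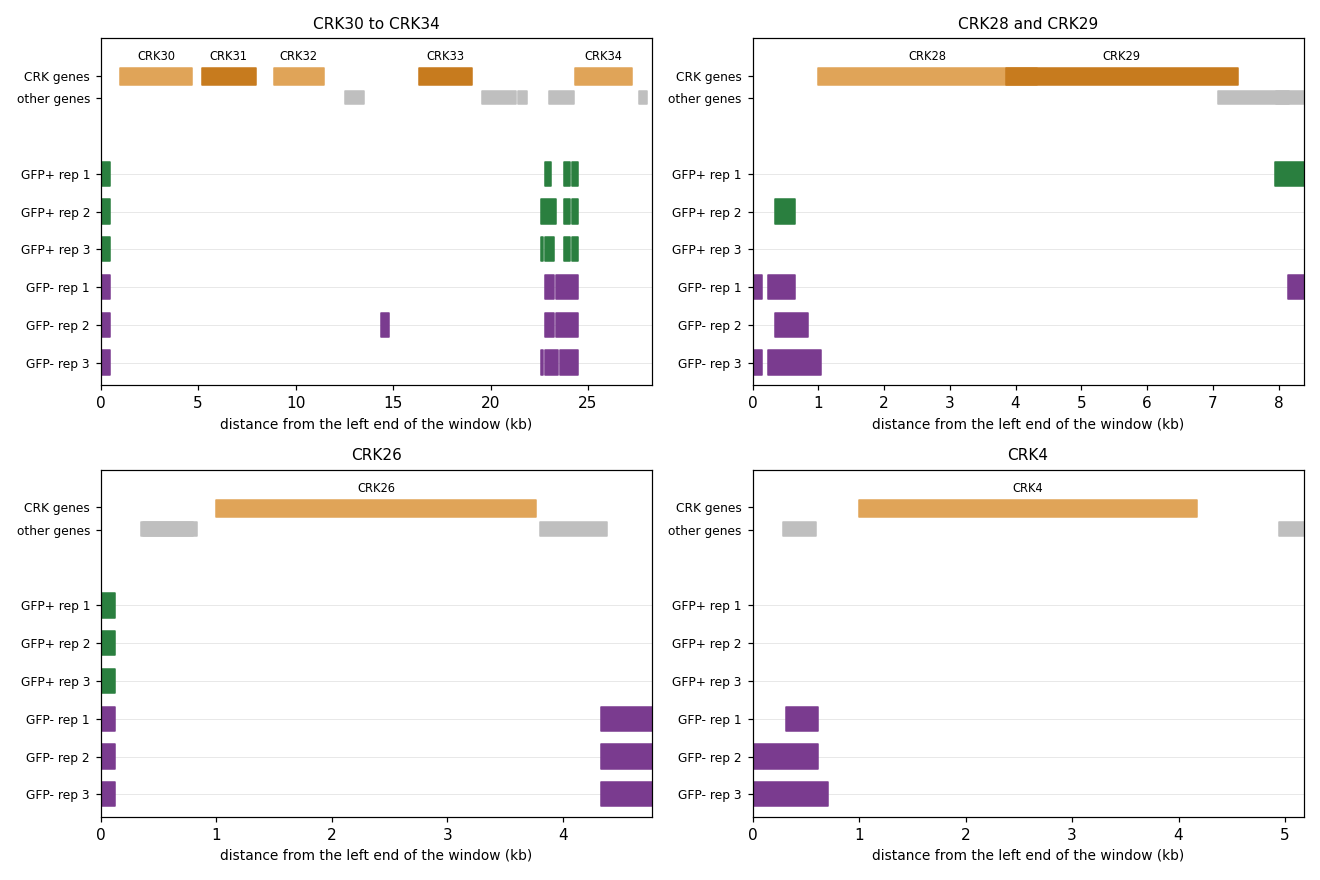
Maps of CRK30 to CRK34, CRK28 and CRK29, CRK26, and CRK4 (x axes, distance in kb from the left end of each window); upper rows show CRK genes and other genes, lower rows the THSs of each library. The sites right of CRK26 and left of CRK4 appear in the 3 GFP- rows and in no GFP+ row, and the sites left of CRK34 reach over more bases in GFP-.

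CRK41 (AT4G00970) had 33.7%, 35.5% and 30.1% in GFP+ and 24.7%, 24.7% and 30.1% in GFP-, with means of 33.1% ± 2.75 and 26.5% ± 3.12 (SD, n = 3). The lowest GFP+ library equalled the highest GFP- library. Its sites lay at both ends of the gene. The region at 418001 to 418900 of chromosome 4 (TAIR10) spanned 800, 700 and 600 bp in GFP+ and 500, 400 and 600 bp in GFP-.

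The other single members differed little. CRK1 (AT1G19090), whose RefSeq symbol is RKF2, had 5.32%, 9.38% and 5.32% in GFP+ and 9.38%, 9.38% and 5.32% in GFP-. CRK27 (AT4G21230) had 6.61% to 8.81% in GFP+ and 8.81% to 11.0% in GFP-. CRK42 (AT5G40380) had 16.1% to 21.0% in GFP+ and 17.5% to 21.0% in GFP-. All had overlapping groups, and CRK25 had no THS.

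When the THSs of the 6 lists were merged, 33 regions touched the window of a CRK gene. All 6 libraries held a THS at 20 of them (60.6%, against 70.1% of all 26792 regions). All 3 GFP- libraries and no GFP+ library held one at 2, those touching the windows of CRK4 and CRK26 (6.06%, against 2.1% of all regions). The reverse was found at 1, in CRK8 (3.03%, against 0.418% of all regions). The remaining 10 were listed in other sets of libraries. Of the 33 regions, 21 overlapped the body of a CRK gene, 8 overlapped no CRK body but another gene at least in part, and 4 overlapped no gene, and 8 stood in the windows of 2 or more members. Their median width was 700 bp, against 600 bp for all regions.

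In the authors' deposited table, which lists genes with THSs per population, 27 of the 41 (65.9%, against 89.1% of all genes) were listed for GFP+ and 22 (53.7%, against 72.3%) for GFP-, with 19 in both and 11 in neither. CRK4, CRK24 and CRK28 were listed there for GFP- alone, and CRK8, CRK13, CRK20, CRK25, CRK30, CRK31, CRK33 and CRK36 for GFP+ alone. Of these, CRK13, CRK20, CRK25, CRK31, CRK33 and CRK36 had no THS within 1000 bp in any of the 6 site lists, and how that table assigned sites to genes is not stated. In the authors' deposited table, CRK4, CRK17, CRK18 and CRK26 were in the dTHS-down column, beside 1.37% of all genes, and 0 of the 41 were in the dTHS-up column, beside 0.412%. CRK10, CRK11, CRK28 and CRK34 had larger differences of means than CRK17 in the site lists and were not in the dTHS-down column.

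Genes outside the family with values nearest to those of CRK11, by Euclidean distance over the 6 libraries, were AT3G05400 (distance 9.65 percentage points), WOX4 (10.7) and AT3G07860 (11.1). WOX4 encodes a homeobox factor of the vascular cambium.

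Lists of genes in related roles were read from the same fit. Over all genes in it, all GFP+ libraries lay above all GFP- libraries at 3.61% and below them at 6.63%. By limma, 0.347% of all genes were called higher and 1.14% lower. None of the 4 protein-coding CRK loci outside the 41 passed limma in either direction, and their means were 24.3% in GFP+ and 21.7% in GFP-. PDLP genes, which encode plasmodesmatal proteins with DUF26 domains and no kinase, had 26.4% and 26.5%, and 0 of the 7 in the fit passed. PDLP4 was the one whose GFP+ libraries all lay above the GFP- libraries, at 13.6% ± 1.47 and 9.33% ± 1.47 (adjusted p = 0.253 by limma, n = 3 per group). Of 8 receptor kinase genes of meristem and organ growth, CLV1 and BRI1 among them, 0 passed, with means of 28.6% and 28.4%. BRI1, the brassinosteroid receptor, had all GFP+ libraries above all GFP- libraries, at 44.6% ± 0.906 and 42.0% in each GFP- library (adjusted p = 0.386 by limma, n = 3 per group). Each of these list means lay above the means of the 41 CRK genes, unlike those of the wall-associated kinases described below.

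Genes of pattern-triggered immunity and the oxidative burst were well covered, at 36.2% in GFP+ and 37.2% in GFP-, and 0 of 16 passed limma. At 3 of them all GFP+ libraries lay below all GFP- libraries, beside 6.63% of all genes in the fit. EFR, a receptor of bacterial elongation factor, had 8.34% ± 0.903 and 13.6% ± 1.81 (adjusted p = 0.165 by limma, n = 3 per group). SOBIR1, a co-receptor kinase of receptor-like proteins, had 42.1% ± 4.22 and 50.3% ± 3.72 (adjusted p = 0.453 by limma). RBOHD, the oxidase phosphorylated by CRK2, had 76.2% ± 5.45 and 84.1% ± 1.94 (adjusted p = 0.477 by limma). At 0 of the 16 did all GFP+ libraries lie above all GFP- libraries, beside 3.61% of all genes. The largest difference in this list went the other way, at CERK1, with 37.0% ± 4.345 in GFP+ and 26.97% ± 4.345 in GFP-. Its lowest GFP+ library equalled its highest GFP- library (adjusted p = 0.385 by limma, n = 3 per group). Of salicylic acid genes, 0 of the 9 in the fit passed. The means over the list of 10 were 25.66% in GFP+ and 27.65% in GFP-, and the median difference in the fit was 1.38 points. GFP+ means were higher at EDS1, SAG101, ICS1, EDS5 and NPR1 and lower at PAD4, PBS3, CBP60G and SARD1. SARD1, a regulator of salicylic acid synthesis, was the one with groups that did not overlap, at 26.5% ± 3.58 in GFP+ and 39.5% ± 10.2 in GFP- (adjusted p = 0.517 by limma).

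Wall-associated kinases bind pectin of the cell wall, and their 5 genes stand in tandem like many CRK genes. The mean over these 5 genes was 4.89% in GFP+ and 8.48% in GFP-, below the CRK means of 8.45% and 10.8%. WAK3 and WAK4 had no THS. WAK2 had a mean of 14.25% in GFP+ and 23.57% in GFP-, with overlapping groups. WAK5 went the other way, with 6.55% in GFP+ and 5.09% in GFP-, and its groups also overlapped. WAK1 had 4.31%, 4.31% and 2.29% in GFP+ and 12.4%, 14.4% and 14.4% in GFP-, a difference of -10.1 points (adjusted p = 0.0178 by limma, lower in 3 of 3 GFP+ libraries). It was the 1 gene of the 3 in the fit that passed, beside 1.14% of all genes called lower. The call was lost with 2000 bp flanks, with the body or the flanks alone, and without GFP+ replicate 1, GFP- replicate 2 or GFP- replicate 3, with differences between -5.55 and -16.8 points.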

How the data were processed

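ATAC-seq site lists of 6 libraries were used, with groups and replicate numbers as in the sample titles. The submitters' processing notes name SICER, bedtools 2.17.0, Picard 1.105, SAMtools 0.1.19 and BWA 0.7 with the TAIR10 genome; their roles, any shift of reads for the transposase, the thresholds and the depth are not stated in the labels. Each deposited list gives the position of each THS and the authors' score, on a scale that is not stated, used here to rank sites within a list. A deposited table of gene lists holds identifiers alone (unit: other).

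Gene positions came from a RefSeq table of assembly TAIR10.1, used for windows and names, and printed positions are those of sites, counted from 1. Of genes in the authors' GFP- column, at least 99.8% per chromosome had a GFP- THS within 1000 bp, and at most 81.9% after a shift by 5000 bp. Coverage in percent was computed per gene and library from the deposited sites. limma 3.58.1 in R 4.3.3 (eBayes with a trend, no block, two-sided) was fitted to genes covered in at least 2 libraries, with Benjamini-Hochberg adjustment and a threshold of 0.05. The code was tested on simulated data. Union regions counted as present with any overlap.

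The members and lists were chosen with earlier results of these data known. Members named with every library's value were those whose groups do not overlap, the 3 highest and 3 lowest covered, and the 3 with the largest difference in each direction; further members' values are given for their clusters. The planned motif and protein comparisons were not run, since no sequences were used here. Alternatives changed the window, the filter, the sites, the model and the libraries; windows without the bases of other genes were added after the data were seen.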

Additional observations from a re-analysis of the deposited data

How the results depend on the processing

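The count of CRK genes called lower by limma (2) was 1 with 2000 bp flanks, with the body alone, with equal numbers of top-scoring sites, with the replicate block and with windows without other genes; the count called higher (0) was 1 with the body alone, with top-scoring sites and with windows without other genes. Over all genes, higher calls (76) came to 125 with the flanks alone, 187 with top-scoring sites and 1 with the replicate block, and lower calls (249) to 29 with the block, under which WAK1 was not called. Same-numbered libraries deviated together with correlations of 0.16, 0.0672 and 0.0389, and other-numbered ones with correlations from -0.145 to 0.0853, most of them negative. The highest of these was between GFP+ replicate 2 and GFP- replicate 3, so not every library correlated best with its own number. The numbers were not taken as pairs, a question that these values do not settle. Leaving out 1 library gave 84 to 208 higher and 141 to 443 lower calls over all genes, with 2 to 4 members lower and 0 to 1 higher. It gave 7 to 12 members with all GFP+ below and 1 to 2 with all above. These last counts cannot fall when a library is left out, so their ranges do not show how stable they are. They were not taken over all genes in these settings. The mean difference over members ranged from -2.98 to -1.86 points without 1 library, and was -0.807 with bodies and -4.90 with flanks alone. Members with all GFP+ below numbered 2 with bodies alone, and those with all above 0 with 2000 bp flanks and 2 with bodies alone or windows without other genes. Cluster differences without 1 library ran from -3.50 to -2.21 (CRK2 to CRK3), -0.369 to -0.0527 (CRK36 to CRK40), -2.53 to -1.65 (CRK30 to CRK34), -7.36 to -4.46 (CRK28 to CRK29) and -2.49 to -1.44 (CRK5 to CRK24). With bodies alone they were -0.857 for CRK36 to CRK40, 0 for CRK30 to CRK34 and -0.230 for CRK28 to CRK29; with flanks alone, -6.27 for CRK30 to CRK34, -24.1 for CRK28 to CRK29 and -4.73 for CRK5 to CRK24. Single differences turned sign at CRK29 (from -1.42 without GFP+ replicate 1 to 2.62 without GFP- replicate 1), CRK7 (-0.488 with 2000 bp flanks, from -0.256 without GFP- replicate 2 to 0.780 without GFP- replicate 1), CRK8 (-1.82, flanks alone), CRK9 (from 1.31 without GFP- replicate 3 to -3.92 without GFP- replicate 2), CRK12 (4.43 with the body alone, 3.04 without other genes, from 0.999 without GFP+ replicate 3 to -5.99 without GFP+ replicate 2), EFR (1.67) and STM (-1.67), both with flanks alone; the causes were not tested. Depth is unknown, so a missing THS cannot be told from one below the authors' threshold.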
